A study of Homo sapiens with 18 samples.

Results

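MDA-MB-231 cells with an inducible ZMYND8 cDNA were sequenced after 6 h and after 48 h of 0.6 µM doxorubicin, and the comparison described here sets the 2 libraries at 48 h against the 2 libraries at 6 h. These 4 libraries were taken by their labels from the 18 libraries of the series. MDA-MB-231 is a human breast adenocarcinoma line of the basal subtype, and doxorubicin is a chemotherapeutic drug that intercalates into DNA and traps topoisomerase II on it. The ZMYND8 cDNA, or a GFP cDNA in the control line, had been placed in the lentiviral vector pInducer20 and introduced stably into the cells under neomycin/G418 selection. All 12 libraries of this inducible system, 2 each for ZMYND8 and GFP cells without doxorubicin and after 6 h or 48 h of it, came from cells given 250 ng/mL doxycycline, which was added a few hours before doxorubicin and kept in the medium with it. The series has 1 line per construct, so a difference between the lines and an effect of the construct cannot be told apart. The cultures at 48 h had also spent longer in doxycycline and in the dish than those at 6 h, and with a single time point without doxorubicin these cannot be told apart from the drug.

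ZMYND8 is a chromatin reader whose bromodomain, PHD finger and PWWP domain bind acetylated and methylated histone tails, and it works with histone demethylases of the KDM5 family and with repressor complexes at promoters and at sites of DNA damage. Doxorubicin breaks DNA and evicts histones, and a cell that survives the first hours arrests, repairs or dies over the following days. DNA released from damaged nuclei can be sensed in the cytosol, through cGAS and STING, and RNA through RIG-I, and both routes lead to interferon and to NF-kB target genes. The question the comparison addresses is how the transcriptome of cells with high ZMYND8 moved between an early and a late time of the same treatment.

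The values are counts of read pairs per gene, between 20846331 and 22142730 per library in the 4 libraries compared. Levels are given as counts per 1000000 counts of a library (CPM) after TMM scaling, which sets the bulk of genes at no change, and fold changes are edgeR log2 values with their standard error (SE). A gene was said to have risen or fallen when its Benjamini-Hochberg adjusted p in edgeR's quasi-likelihood test was at most 0.05, whatever its fold. The gene ZMYND8 itself (ENSG00000101040.19, hg38, chromosome 20, 47209214 to 47356889, minus strand) was counted at 922 and 927 CPM in ZMYND8 cells without doxorubicin, 829 and 898 after 6 h and 1001 and 924 after 48 h. In GFP cells it was at 209 and 208, 93.8 and 99.4 and 139 and 141 CPM, so the 6 ZMYND8 libraries lay above all 6 GFP libraries. The counts do not separate the cDNA from the endogenous gene. Its own change from 6 to 48 h in ZMYND8 cells was 0.16 (SE 0.0426, adjusted p = 0.0025), and leaving out replicate 1 at either time brought it to 0.09 with adjusted p = 0.12 or 0.14.

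The 5 mesenchymal genes taken as markers of this line were expressed. Over the 4 libraries VIM ranged from 2535 to 4450.3 CPM, CD44 from 512 to 842, AXL from 578 to 1203, S100A4 from 237 to 531 and ZEB1 from 48.2 to 78.6. ESR1, the estrogen receptor gene, was at 0.296 and 0.263 CPM at 6 h and 0.691 and 0.638 at 48 h and was not called. The progesterone receptor gene PGR had 0 counts at 6 h and was at 0.285 and 0.34 CPM at 48 h. ERBB2, at 83.5 and 90.9 and 73.2 and 75.7 CPM, and the epithelial gene EPCAM, at 10.8 and 10.2 and 8.13 and 6.89, were present.

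Between 6 and 48 h the transcriptome of ZMYND8 cells moved broadly. Of 18801 genes tested, 5671 (30.2%) rose and 5889 (31.3%) fell, 61.5% in all. A change of at least 1.5 on the log2 scale, the fold used in the study for this system, was reached by 2132 rising genes (11.3%) and by 214 falling genes (1.14%). The large rises were mostly of genes with few counts, and the large falls of better expressed ones: the median average level was −0.76 log2 CPM among the large rises and 3.75 among the large falls. Genes with next to no counts at 6 h could pass the filter on low counts only through other groups, the libraries at 48 h among them. The excess of large rises at low levels therefore depends on the filter. With at least 10 counts in every library 468 large changes were left, 370 of them rises. The median change of all genes was 0.04 under TMM scaling and 0.32 when libraries were scaled to their total counts, so directions below are relative to the bulk of genes. With total-count scaling 74.1% of the calls were rises in place of 49.1%, and 96.6% in place of 90.9% of the large ones. The numbers that rose or fell in each list below are to be read against 30.2% and 31.3% of all genes. Those under total-count scaling have another background, since 12247 of the 18801 genes were called there and 9077 of them rose. In bulk libraries a change in RNA per cell and a change in the kinds of cells present cannot be told apart.

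**Figure D1:**
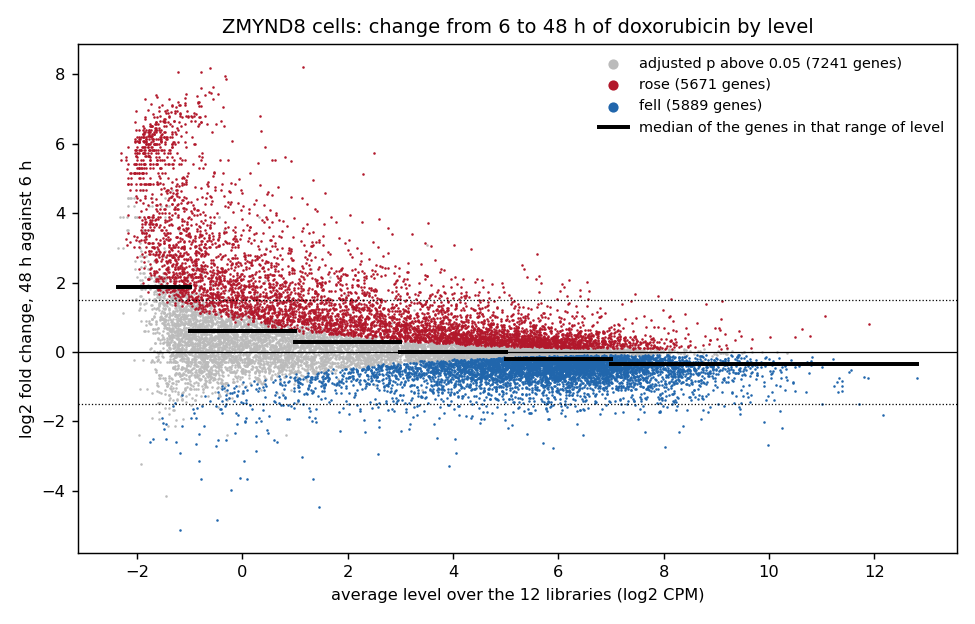
Each point is 1 of 18801 genes, with its average level over the 12 inducible libraries (log2 CPM) on the x axis and its log2 fold change at 48 h against 6 h in ZMYND8 cells on the y axis. Red genes rose, blue genes fell, and grey genes missed an adjusted p of 0.05. Black bars are the median in 6 ranges of level, which went from 1.86 below −1 log2 CPM to −0.36 from 7 log2 CPM on, and dotted lines mark 1.5 in either direction. Genes with next to no counts at 6 h were tested only through other groups, so the medians at low levels depend on the filter on low counts.

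Most interferon-stimulated genes rose. Of 48 genes in the list 37 rose, 6 fell and 5 were not called, with a median change of 0.91 against 0.04 for all genes, and 14 of the rises were large. IFI44L was counted at 2.71 and 2.21 CPM at 6 h and 11.2 and 10.8 at 48 h, a change of 2.16 (SE 0.173, adjusted p = 2.6e-11). MX1, a GTPase that blocks incoming viruses, went from 17.3 and 16.8 to 66.8 and 68.5 CPM, and IFI6, an interferon-induced protein of mitochondria and the endoplasmic reticulum, from 35.2 and 31 to 137 and 139. RTP4 went from 2.32 and 2.36 to 15.7 and 13.2 CPM. The changes were 1.99 for MX1, 2.06 for IFI6 and 2.63 for RTP4 on the log2 scale. IFI44L, MX1, IFI6 and RTP4 were named for the largest changes of the list, so the gap between their libraries is no separate evidence. IFIT3 went from 881 and 864 to 1341 and 1288 CPM, by 0.59, and the ubiquitin-like protein ISG15 from 465 and 449.7 to 1151 and 1207, by 1.37. The level at 6 h was below that without doxorubicin for IFIT3, at 1161 and 1178 CPM, so that its change against the untreated cells was 0.17 at 48 h. GBP2, a guanylate-binding protein, went the other way, from 15.5 and 14.9 to 5.57 and 5.7 CPM, a change of −1.43.

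The promoters of the 4 interferon-stimulated genes with the largest changes are shown because they carry the letters bound by the interferon-activated factors. Each is the 300 bases from 250 before to 50 after the RefSeq start, on the gene's own strand, 5′ to 3′, in GRCh38.p14. Capitals mark TTCNNTTTC, a core of the interferon-stimulated response element, or its reverse complement GAAANNGAA, where overlapping matches run together.
IFI44L (chr1:78620198-78620497, plus strand): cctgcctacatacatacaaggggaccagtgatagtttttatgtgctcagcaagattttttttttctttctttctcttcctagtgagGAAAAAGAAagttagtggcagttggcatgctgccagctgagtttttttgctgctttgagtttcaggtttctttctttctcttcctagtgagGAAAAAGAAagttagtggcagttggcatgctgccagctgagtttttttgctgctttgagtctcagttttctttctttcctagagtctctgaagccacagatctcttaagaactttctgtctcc
IFI6 (chr1:27672143-27672442, minus strand): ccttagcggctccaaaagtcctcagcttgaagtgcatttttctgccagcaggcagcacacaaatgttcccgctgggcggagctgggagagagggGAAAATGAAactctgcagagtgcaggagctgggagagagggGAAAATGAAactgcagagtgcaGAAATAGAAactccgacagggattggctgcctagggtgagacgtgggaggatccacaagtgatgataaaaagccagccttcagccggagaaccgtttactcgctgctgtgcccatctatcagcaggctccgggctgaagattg
MX1 (chr21:41420308-41420607, plus strand): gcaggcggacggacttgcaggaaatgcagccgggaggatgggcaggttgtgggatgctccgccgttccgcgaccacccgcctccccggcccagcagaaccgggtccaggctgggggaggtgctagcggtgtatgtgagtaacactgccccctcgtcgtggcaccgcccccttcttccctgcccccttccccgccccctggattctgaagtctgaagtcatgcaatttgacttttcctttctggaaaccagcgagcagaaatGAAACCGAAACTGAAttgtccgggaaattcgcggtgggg
RTP4 (chr3:187368135-187368434, plus strand): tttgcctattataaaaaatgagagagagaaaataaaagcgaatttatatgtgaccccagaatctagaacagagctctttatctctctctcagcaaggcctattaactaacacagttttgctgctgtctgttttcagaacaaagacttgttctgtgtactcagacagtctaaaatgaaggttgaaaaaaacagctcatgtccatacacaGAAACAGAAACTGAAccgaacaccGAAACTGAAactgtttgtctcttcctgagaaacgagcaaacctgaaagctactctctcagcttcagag

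IFI44L and MX1 held 2 matches each, and IFI6 and RTP4 held 3 each. RefSeq promoters were found for 40 of the 48 genes of the list, and 30 of these (75.0%) held the letters on either strand, against 2264 of 27305 promoters of the same length (8.29%) and 6.6% of the promoters of genes tested. Among the 31 list genes with a promoter that rose, 22 held a match. The 9 others with a promoter, which fell or were not called, held 8, so the match went with membership of the list and did not separate the members that rose.

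Most genes that sense nucleic acids and pass the signal on rose as well. Of 26 tested, 20 rose and 4 fell (24 and 1 under total-count scaling), with a median change of 0.56. The 4 that fell were TBK1 (−0.52), JAK1 (−0.39), MAVS (−0.15) and CGAS (−0.13), the last being the gene of the DNA sensor cGAS. RIGI, the cytosolic sensor of RNA ends, went from 239 and 228 to 557 and 532 CPM, a change of 1.22 (SE 0.04, adjusted p = 1.9e-19). STING1, the adaptor of the DNA route, went from 30.7 and 33.5 to 86.9 and 83.7 CPM, and DHX58, a relative of RIG-I, from 19.4 and 20.1 to 64 and 66.4. Both lay close to their untreated levels at 6 h, with 37 and 39.2 and 17 and 18.2 CPM without doxorubicin. IFNL1, the interferon lambda 1 gene, was at 1.04 and 0.788 CPM at 6 h and reached 7.28 and 7.19 at 48 h, a change of 2.98 (adjusted p = 3.7e-09).

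Cytokine and chemokine genes rose with them. Of 35 tested, 22 rose, 6 fell (26 and 3 under total-count scaling) and 7 were not called, and the median change was 0.79. CXCL11, a chemokine induced by interferon, was at 2.9 and 2.84 CPM without doxorubicin, 3.45 and 3.62 at 6 h and 36.7 and 37.8 at 48 h, a change of 3.40 (SE 0.138, adjusted p = 1.8e-17). IL24, a cytokine of the IL-10 family, went from 19.5 and 19.2 to 138 and 139 CPM, by 2.83, and IL6 from 98.6 and 88.1 to 238 and 229.8, by 1.32. For these 3 genes both libraries at 48 h lay far above those at 6 h and, with 17.6 and 17.7 CPM for IL24 and 69.7 and 75.9 for IL6, above the untreated ones. They were named for their level or the size of their change, so this separation is no separate evidence. IDO1, the interferon-induced enzyme that degrades tryptophan, was at 0.69 and 0.525 CPM at 6 h and 22.2 and 21.4 at 48 h, which at 5.14 on the log2 scale was among the 10 largest rises of genes that met the naming rule. PTGS2, which encodes the inducible cyclooxygenase, went from 6.7 and 6.78 to 25.9 and 23.6 CPM, and the adhesion receptor ICAM1 from 26.4 and 29.6 to 74.9 and 79.6. CCL5 was called, but with 0.591 and 0.0525 CPM at 6 h and 13.7 and 1.06 at 48 h its replicates were far apart, and without replicate 1 at 48 h its adjusted p was 0.055. LIF, a cytokine of the IL-6 family, fell from 75.7 and 82.2 to 28.3 and 27.3 CPM.

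The promoter of IL6 is shown for the NF-kB letters GGANTTTCC, in capitals (chr7:22726950-22727249, GRCh38.p14, plus strand).
IL6: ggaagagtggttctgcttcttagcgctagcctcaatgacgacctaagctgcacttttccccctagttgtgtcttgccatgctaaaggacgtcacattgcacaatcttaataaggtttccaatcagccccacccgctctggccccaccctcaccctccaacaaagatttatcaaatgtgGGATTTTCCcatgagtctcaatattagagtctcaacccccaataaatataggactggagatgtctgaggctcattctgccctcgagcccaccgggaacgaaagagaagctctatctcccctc

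Of 33 promoters found for the 42 genes of the cytokine list, 16 (48.5%) held these letters or their reverse complement, against 449 of 27305 promoters (1.64%). Among the 17 that rose, 7 held them, and among the 16 others 9 did. These others include genes with too few counts to test, among them LTB, CXCL5 and CXCL6, which held a match. They are therefore not all genes that fell or were not called.

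**Figure D2:**
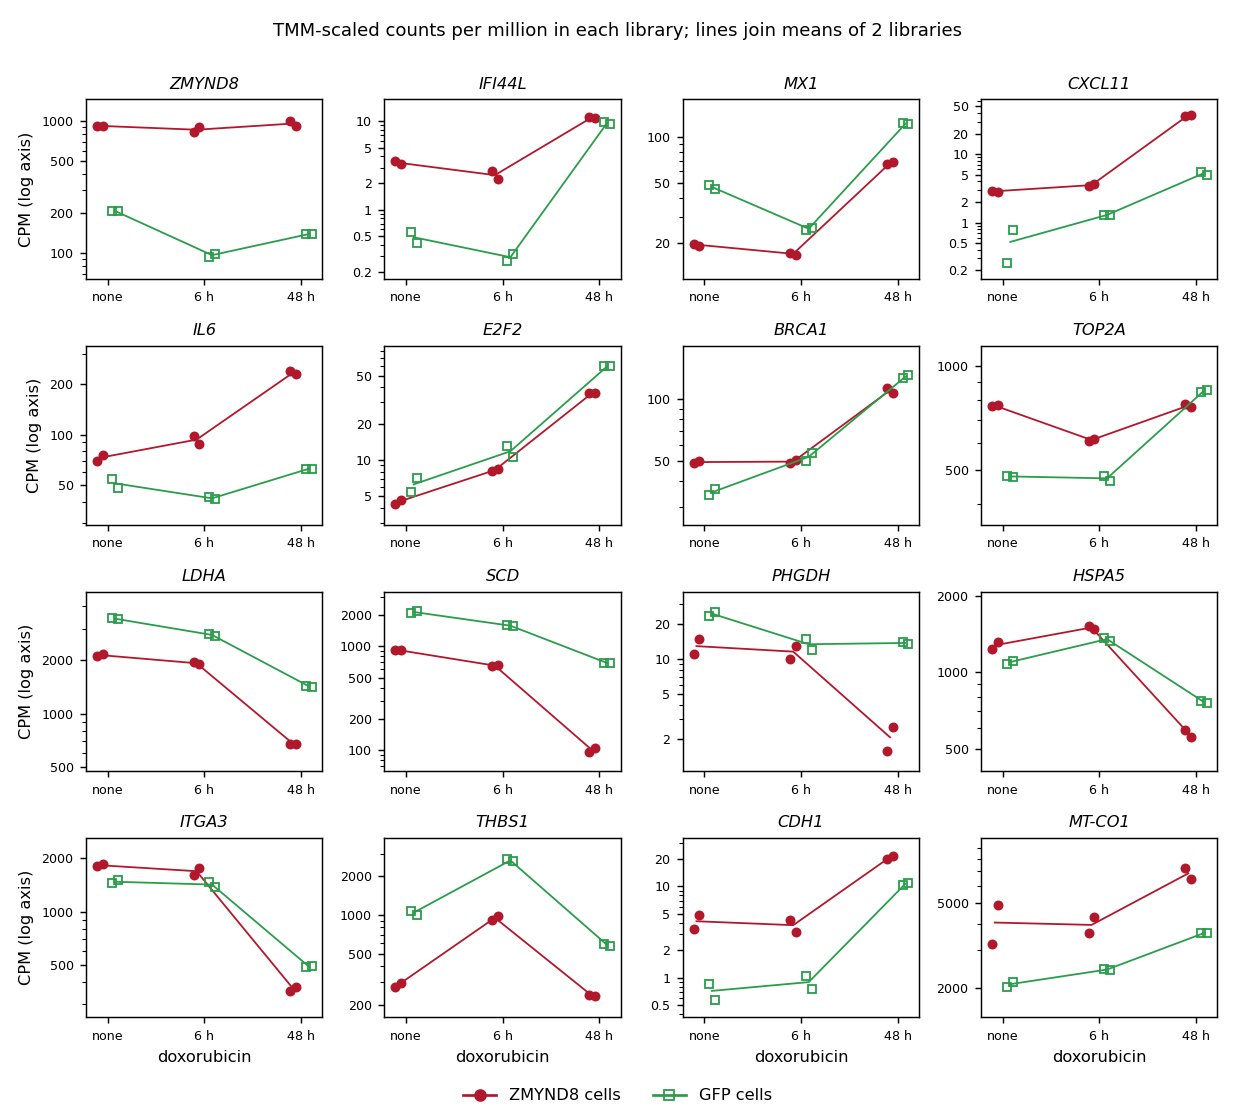
Levels in each library (TMM-scaled CPM, log axis) of 16 genes named in the text, without doxorubicin and after 6 h or 48 h of it. Red filled circles are the 2 libraries of ZMYND8 cells, green open squares those of GFP cells, and lines join the means. IFI44L, MX1, CXCL11, IL6, E2F2, BRCA1 and CDH1 were higher at 48 h than at 6 h in both lines, LDHA, SCD, HSPA5, ITGA3 and THBS1 were lower in both, and PHGDH was lower in ZMYND8 cells while the GFP libraries at 6 h and 48 h overlapped.

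Genes of DNA replication rose modestly and on a broad front. Of 60 genes in the list, 38 rose, 7 fell (54 and 3 under total-count scaling) and 15 were not called, with a median change of 0.24. E2F2, a transcription factor that drives entry into S phase, stood apart, at 4.3 and 4.68 CPM without doxorubicin, 8.08 and 8.4 at 6 h and 35.6 in both at 48 h, a change of 2.11 (SE 0.102, adjusted p = 7.5e-16). E2F8, a repressive member of the same family, went from 31.5 and 32.8 to 80.1 and 77.8 CPM, the thymidine kinase gene TK1 from 145 and 160.4 to 295 and 287 and the primase gene PRIM1 from 14.3 and 12.2 to 23.5 and 24.3. MCM7, a subunit of the replicative helicase, was at 429 and 449 CPM at 6 h and 451 and 434 at 48 h, so its libraries overlapped, and its change was not called but became 0.30 (adjusted p = 1.1e-07) under total-count scaling and 0.12 (adjusted p = 0.0098) with at least 10 counts in every library.

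The promoter of E2F2 is shown with its match to the E2F letters in capitals (chr1:23531184-23531483, GRCh38.p14, minus strand).
E2F2: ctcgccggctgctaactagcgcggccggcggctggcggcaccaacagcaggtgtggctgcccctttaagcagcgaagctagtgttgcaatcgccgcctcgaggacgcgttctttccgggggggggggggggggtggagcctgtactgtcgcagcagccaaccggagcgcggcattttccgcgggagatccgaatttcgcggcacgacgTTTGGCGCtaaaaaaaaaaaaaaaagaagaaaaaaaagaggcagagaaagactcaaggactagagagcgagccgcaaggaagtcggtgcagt

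The letters searched were TTTCCCGC and TTTGGCGC on both strands. They were in 22 of the 48 promoters found for this list (45.8%) and in 14 of the 28 promoters of its members that rose and 8 of the 20 others, against 631 of 27305 promoters (2.31%).

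Of 44 genes of homologous recombination and the DNA damage checkpoint, 19 rose and 9 fell, against 30.2% and 31.3% of all genes, with a median change of 0.11. Under total-count scaling 33 rose and 2 fell. The 9 that fell included NBN (−0.68), ATR (−0.54), FANCM (−0.51), HUS1 (−0.49) and CHEK1 (−0.36). BRCA1 was at 49.1 and 50.2 CPM without doxorubicin, 49.1 and 50.7 at 6 h and 113 and 108 at 48 h, a change of 1.15 (SE 0.0531, adjusted p = 2.8e-16). The checkpoint kinase gene CHEK2 went from 18.7 and 16.3 to 40.5 and 39.8 CPM, RAD51AP1, a recombination accessory factor, from 38.6 and 37.6 to 85.8 and 81.1, and RAD51C from 24.4 and 21.1 to 49.6 and 44.5. The BRCA1 libraries at 6 h overlapped the untreated ones. In BRCA1, CHEK2, RAD51AP1 and RAD51C both libraries at 48 h lay above every earlier one. These 4 were named for the largest changes of the list, so this separation is no separate evidence. A further list of 5 DNA damage genes was drawn by the study from this RNA-seq as regulated genes, so it is not an independent choice. Of these, BRCA1, CLSPN (0.52), RFC3 (0.42) and MCM10 (0.22) rose. CDC25A, a phosphatase that opens S phase, was at 34.8 and 36.8 CPM without the drug, 83.6 and 89.8 at 6 h and 85.6 and 83.2 at 48 h, a change of −0.04 that was not called under TMM scaling and became 0.25 with adjusted p = 7.8e-05 under total-count scaling.

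Mitotic genes had been lower at 6 h, when 40.8% of all genes were called against no doxorubicin, and partly returned. In the list of 58 the median was −0.28 at 6 h against no doxorubicin and 0.08 at 48 h against 6 h. From 6 to 48 h 24 rose, 14 fell and 20 were not called, against 30.2% rises and 31.3% falls of all genes. Under total-count scaling 43 rose and 3 fell. TOP2A, the topoisomerase that doxorubicin traps, was at 768 and 769.7 CPM without the drug, 606 and 617 at 6 h and 775 and 762 at 48 h, a change of 0.33 (SE 0.036, adjusted p = 9.7e-09). NEK2, a centrosomal kinase, followed the same course with 56.7 and 57.8, 37.1 and 34.2 and 56.3 and 53.6 CPM. The kinetochore genes CENPH and SKA3 rose by 0.84 and 0.66 and the phosphatase CDC25C by 0.65. The 14 mitotic genes that fell included PLK1 (−0.62), CENPE (−0.46) and DLGAP5 (−0.43). Of the other topoisomerase genes, TOP2B fell from 160.3 and 162 to 97.1 and 94.5 CPM and TOP1 from 351 and 356 to 225 and 220.4. CCND1, the D-type cyclin of G1, rose to 1047 and 1135 CPM at 6 h from 662 and 696 and was at 448 and 449 at 48 h, and its partner kinase CDK6 fell from 162 and 166 to 88.2 and 91.5.

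Replication-dependent histone genes rose where they could be measured. The libraries were made from poly(A) RNA, which holds few of these transcripts, and 23 of 69 genes passed the filter on low counts, of which 18 rose and 0 fell at a median of 1.06. H4C8 went from 3.89 and 3.68 to 12.5 and 11.4 CPM and H2BC11 from 3.25 and 3.47 to 10.9 and 10.1, and H2BC12 from 63.2 and 65.6 to 95.2 and 92.3. These genes are near-copies of one another, so reads could be shared or lost among them, and a gene that passed the filter only through its level at 48 h had to differ.

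Of 30 p53 targets 13 rose and 10 fell, against 30.2% and 31.3% of all genes, and the median was 0.10. Under total-count scaling 19 rose and 2 fell. The BH3-only gene BBC3 (PUMA) had dropped at 6 h, from 15.9 and 17.5 to 6.21 and 6.04 CPM, and was at 17.4 and 18.8 at 48 h, a change of 1.56 from 6 to 48 h that ended at about its untreated level. The CDK inhibitor gene CDKN1A (p21) went from 155 and 159 to 263 and 256 CPM, the death receptor gene FAS from 6.21 and 6.72 to 21.1 and 21.4, and GDF15 from 77.6 and 72.1 to 146 and 159 after 161 and 146 without the drug. PMAIP1 (NOXA) was at 1076 and 971 CPM at 6 h and 975 and 984 at 48 h and was not called, with a change of −0.06 that became 0.23 under total-count scaling. TRIM22, a p53 target that interferon also induces, rose from 1.08 and 1.16 to 4.35 and 5.1 CPM, and BTG2, an antiproliferative gene, from 1.28 and 1.42 to 4.51 and 4.72. Within the BCL2 family 3 of 15 genes rose and 4 fell, or 10 and 2 under total-count scaling. BCL2L1, the survival gene, fell from 364 and 369.5 to 280.0 and 281 CPM and BOK, a pore-forming relative of BAX, from 75.1 and 78.5 to 31.6 and 35.

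**Figure D3:**
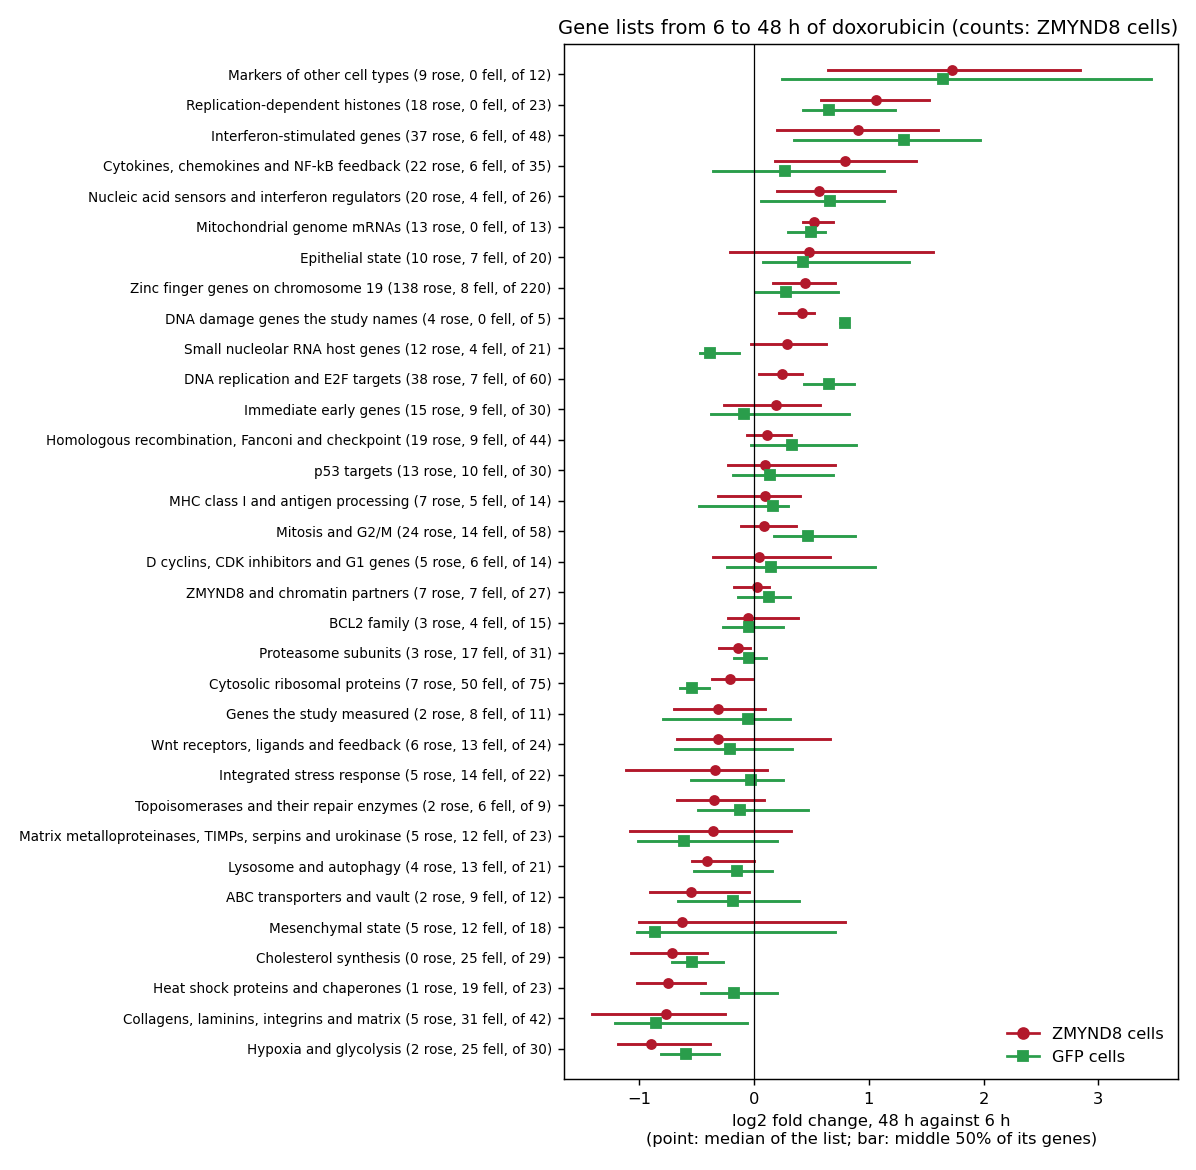
Median log2 fold change at 48 h against 6 h (points) and the middle 50% of the genes (bars) of 33 gene lists, in ZMYND8 cells (red circles) and GFP cells (green squares). The numbers beside each list count the genes of ZMYND8 cells that rose or fell among those tested. Interferon-stimulated genes had medians of 0.91 and 1.31, and hypoxia and glycolysis genes −0.89 and −0.59. The medians of cytosolic ribosomal protein and proteasome genes in ZMYND8 cells, −0.21 and −0.14 here, turned positive under total-count scaling, as did that of the BCL2 family (−0.05). The median of all genes was 0.04 under TMM and 0.32 under total-count scaling.

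Genes of glycolysis and the response to hypoxia fell. Of 30 hypoxia and glycolysis genes 25 fell and 2 rose (22 and 5 under total-count scaling), with a median of −0.89. LDHA, which encodes lactate dehydrogenase A, went from 1944 and 1889 to 680.3 and 674 CPM, a change of −1.5 (SE 0.0353, adjusted p = 2.9e-22), and PGK1, phosphoglycerate kinase, from 1323 and 1238 to 488 and 499. PDK1, the kinase that closes pyruvate dehydrogenase under hypoxia, went from 37.2 and 35.7 to 13.8 and 14.4 CPM. CA9, a carbonic anhydrase and a classic target of HIF, fell furthest in the list, from 10.8 and 9.4 to 1.46 and 1.15 CPM. Even GAPDH, often taken as a constant, went from 3036 and 3103 to 2092 and 1983 CPM. In each of these 5 genes both libraries at 48 h lay below the 4 untreated and 6 h libraries. They were named as the most abundant member or for the largest changes of the list, so this separation is no separate evidence.

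Genes of cholesterol and fatty acid synthesis fell with them. Of 29 genes 25 fell and 0 rose (19 and 2 under total-count scaling), with a median of −0.71. SCD, the desaturase that makes oleate, was at 919 and 927 CPM without doxorubicin, 642 and 663 at 6 h and 95.3 and 106 at 48 h, a change of −2.70 (SE 0.046, adjusted p = 5.7e-25). INSIG1, the sterol sensor partner, went from 151 and 159.6 to 54.8 and 54.4 CPM and DHCR7, the last enzyme of cholesterol synthesis, from 64.4 and 70.4 to 23.5 and 24. All 3 are targets of the SREBP factors.

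Chaperone genes fell after an early rise. Of 23 genes 19 fell and 1 rose (16 and 4 under total-count scaling) at a median of −0.75, against a median of 0.28 from no doxorubicin to 6 h. HSPA8, the constitutive HSP70, was at 2516 and 2644 CPM without the drug, 4583 and 4474 at 6 h and 2003 and 2055 at 48 h, a change of −1.16 (SE 0.036, adjusted p = 6.8e-20). HSPA5 (BiP), the HSP70 of the endoplasmic reticulum, went from 1514 and 1482 to 592 and 558 CPM, and HSPD1, the mitochondrial HSP60, from 1459 and 1420.2 to 593 and 576. The stress-inducible HSPA6 went from 71.1 and 69.1 to 24 and 25.5 CPM.

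Of 22 genes of the integrated stress response and amino acid supply 14 fell and 5 rose, with a median of −0.34. Under total-count scaling 10 fell and 8 rose, at a median of −0.05. SLC7A5, which imports large neutral amino acids, was at 516 and 535 CPM without the drug, 899 and 980.2 at 6 h and 301 and 304 at 48 h. The enzymes of serine synthesis PHGDH and PSAT1 went from 10.1 and 13.1 to 1.59 and 2.59 CPM and from 151 and 142 to 52.5 and 52.4, changes of −2.47 and −1.48. ASNS, asparagine synthetase, fell from 1.97 and 2 to 0.732 and 0.638 CPM, and the stress-induced regulator NUPR1 from 6.36 and 6.67 to 2.03 and 2.59. PPP1R15A (GADD34), which relieves the translation block of this response, rose from 487 and 509.6 to 912 and 848 CPM.

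Matrix and adhesion genes fell. Of 42 collagens, laminins, integrins and other matrix genes 31 fell and 5 rose (29 and 8 under total-count scaling), with a median of −0.77 and 9 large falls. THBS1, thrombospondin 1, was at 276 and 293 CPM without the drug, 917 and 983 at 6 h and 237 and 234 at 48 h, a change of −2.01 (SE 0.0443, adjusted p = 8.8e-23). ITGA3, the laminin-binding integrin α3, fell without such a peak, from 1813 and 1849 and 1614 and 1773 to 357 and 374 CPM, and tenascin C (TNC) went from 118 and 123 to 22 and 24.2. Of the matrix proteases and their inhibitors 12 of 23 fell and 5 rose, or 8 and 7 under total-count scaling. The urokinase gene PLAU went from 336 and 358 to 109 and 108 CPM. MMP1, the interstitial collagenase, rose instead, from 13.7 and 12.2 to 40 and 35.6 CPM. COL1A2 was called as a rise of 2.64 on 1 library, with 0.203 and 3.06 CPM at 48 h against 0.197 and 0.315 at 6 h, and without replicate 2 at 48 h the change was −0.33.

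Genes that mark the mesenchymal state fell and several that mark the epithelial state rose, with exceptions on both sides. Of 18 mesenchymal genes 12 fell and 5 rose (12 and 6 under total-count scaling), at a median of −0.63. Of 20 epithelial genes 10 rose and 7 fell (14 and 2 under total-count scaling), at a median of 0.48. TAGLN, a smooth muscle actin-binding protein, peaked at 40 and 42 CPM at 6 h from 11.6 and 12.2 and was at 4.03 and 4.34 at 48 h, a change of −3.29 (SE 0.107, adjusted p = 1.4e-19). TGFB2 went from 115 and 127 to 38.8 and 36.9 CPM and VIM by −0.73, while SNAI1 rose from 3.3 and 2.31 to 9.27 and 8.72 and ACTA2 from 1.73 in both to 8.34 in both. E-cadherin (CDH1) rose from 4.34 and 3.2 to 20.1 and 21.7 CPM, by 2.46, claudin 1 (CLDN1) from 6.31 and 6.93 to 18.7 and 19.1, and the basal keratins KRT17 and KRT14 from 215 and 198 to 664 and 651 and from 5.08 and 5.73 to 16.3 and 18. KRT8 was at 662 and 653 and 566 and 562 CPM, a fall of 0.22 under TMM scaling that became 0.07 under total-count scaling. With genes under 10 counts in any library left out, the median of the epithelial list was −0.02.

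Genes of stemness, drug efflux and the mesenchymal state that the study measured by PCR were taken as a further list, so they are not an independent choice. That PCR was described for MDA-MB-231 cells with ZMYND8 siRNA, doxorubicin or ectopic ZMYND8, and the inducible lines are not named for it. Of the 15 genes of the list 11 passed the filter on low counts, 2 rose and 8 fell, against 4 and 5 under total-count scaling. The surface marker CD24 rose from 37 and 37.1 to 81.9 and 76.7 CPM, and CD44 fell from 842 and 829.5 to 539 and 512. SNAI2 fell from 149 and 146 to 71 and 75 CPM, below its untreated 85.4 and 90.4, and ZEB1 from 78.6 and 73.8 to 50.5 and 48.2. ABCC1, an efflux pump for drugs of this class, fell from 18 and 22.2 to 8.99 and 10.1 CPM. ABCC2 was at 2.27 and 1.89 and 2.6 and 2.55 CPM and was not called. NOTCH1 (−0.29), SOX9 (−0.31) and BMI1 (−0.12) fell by small amounts under TMM scaling, and total-count scaling moved them to 0.00, −0.02 and 0.17. Without replicate 2 at 6 h the change of NOTCH1 was −0.12 (adjusted p = 0.17), and without replicate 1 at 6 h or replicate 2 at 48 h that of BMI1 was −0.08 or −0.11 and was not called. BMI1 also lost its call with RLE factors (adjusted p = 0.11), with at least 10 counts in every library (0.89), with the libraries of the contrast alone (0.2) and in DESeq2 (0.24). ABCB1 had 0 counts in both libraries at 6 h and 0.447 and 0.553 CPM at 48 h, which against 3 counts per library was at least 3.27-fold higher. SOX2, NANOG, POU5F1 and TWIST1 had too few counts to test.

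KDM5C and EZH2 are partners of ZMYND8 in the study. KDM5C, a histone H3K4 demethylase, was at 197 and 214 CPM at 6 h and 175 and 169.9 at 48 h, a fall of 0.25 (SE 0.045, adjusted p = 2.4e-05) that became a change of 0.04 under total-count scaling. EZH2, the H3K27 methyltransferase of Polycomb, had risen by 6 h, from 81.1 and 89.7 to 116 and 118 CPM, and was at 122 and 124 at 48 h, a change of 0.07 (adjusted p = 0.19). It was called as a rise of 0.36 under total-count scaling, of 0.18 with at least 10 counts in every library and of 0.11 with the libraries of the contrast alone. Of 27 genes of ZMYND8 and its chromatin partners 7 rose and 7 fell, or 18 and 2 under total-count scaling. Of all genes 30.2% rose and 31.3% fell under TMM scaling, so nothing particular to this list is read from its counts. KMT2A, an H3K4 methyltransferase, rose from 91.2 and 94.3 to 130.1 and 146 CPM and KDM6B, an H3K27 demethylase, from 70.4 and 71.3 to 92.4 and 90.9. GATAD2A and HDAC2, subunits of the NuRD complex, fell by 0.61 and 0.48.

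Mitochondrially encoded mRNAs rose together. All 13 rose, at a median of 0.52, and mitochondrial counts made up 1.41% and 1.55% of the libraries at 6 h and 3.01% and 2.73% at 48 h. MT-CO1, a subunit of cytochrome oxidase, went from 3609 and 4272 to 7197 and 6464 CPM, and MT-ND6 from 36.7 and 43.7 to 106 and 93.6. The untreated replicates differed from each other, with 3227 and 4855 CPM for MT-CO1, and both lay below the libraries at 48 h. MT-ND1 went from 508 and 653 to 1012 and 857 CPM. Cytosolic ribosomal protein genes fell by little: of 75 genes 50 fell and 7 rose at a median of −0.21, and under total-count scaling 17 fell and 32 rose at a median of 0.08. Relative to the median of all genes, the list median was −0.24 under either scaling, and that of the proteasome genes below was −0.18. RPL13A went from 2169 and 2194 to 1851 and 1807 CPM, a fall of 0.25 that became a change of 0.03 under total-count scaling. RPL13 went from 892 and 887 to 541 and 564 CPM and RPS16 from 631 and 619 to 406 and 393, and RPL26 rose from 48.3 and 42.5 to 70.3 and 61.3. Of 31 proteasome genes 17 fell and 3 rose (6 and 16 under total-count scaling), with a median of −0.14 that also turned, to 0.14, and the 19S subunit genes PSMD1 and PSMD2 went from 262 and 259 to 139.6 and 133 CPM and from 904 and 916 to 723 and 724. Of 21 lysosome and autophagy genes 13 fell and 4 rose, against 31.3% and 30.2% of all genes, or 10 and 7 under total-count scaling. SQSTM1, the autophagy receptor p62, went from 1325 and 1338 to 1087 and 1064 CPM. The falls of SQSTM1 (−0.02, adjusted p = 0.64) and PSMD2 (−0.04, adjusted p = 0.27) were not called under total-count scaling. The protease gene CTSD went from 622 and 677 to 224 and 207 CPM, and GABARAPL1, which builds autophagosomes, from 37.8 in both to 94.7 and 89.7.

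Of 30 immediate early genes 15 rose and 9 fell (20 and 6 under total-count scaling), with ATF3, a stress-induced transcription factor, going from 72.1 and 74.8 to 172 and 169 CPM, the nuclear receptor NR4A1 from 8.33 and 10.1 to 25.7 and 24.5, and the YAP targets CCN2 (CTGF) and CCN1 (CYR61) from 479 and 510.1 to 182 and 173 and from 1339.7 and 1410.4 to 913 and 906. Of 14 D cyclins, CDK inhibitors and other G1 genes 5 rose and 6 fell, or 8 and 4 under total-count scaling. The counts of every list in this paragraph stand against 30.2% rises and 31.3% falls of all genes under TMM scaling. Of 24 Wnt genes 13 fell and 6 rose (8 and 7 under total-count scaling), among them the co-receptor LRP5, from 106 and 117 to 48.5 and 47.8 CPM. DKK1, a secreted Wnt antagonist, fell from 782 and 749.5 to 497 and 515 CPM, and TCF7, a transcription factor of the pathway, rose from 3.45 and 3.52 to 13.1 and 13.2. Of 12 transporter and vault genes 9 fell and 2 rose (6 and 3 under total-count scaling), and the pump ABCC4 went from 49 and 50.4 to 23.9 and 24.5 CPM and the major vault protein MVP from 125 and 137 to 66.2 and 66.4. Of 9 topoisomerases and their repair enzymes 6 fell and 2 rose, or 4 and 3 under total-count scaling. Of the 20 genes of MHC class I and antigen processing 14 were tested, 7 rose and 5 fell, or 8 and 2 under total-count scaling. HLA-B rose from 25.2 and 26.9 to 44 and 40 CPM, while the chaperones of peptide loading CALR and PDIA3 fell by 0.81 and 0.96. HLA genes have near-identical copies, and read pairs with several alignments were not counted, so the value of HLA-B is uncertain.

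Zinc finger genes of chromosome 19 rose in numbers, by little each. Of 220 tested, 138 rose and 8 fell, with a median of 0.44. ZNF382 went from 1.43 and 1.52 to 4.88 and 5.27 CPM after 3.96 and 4.07 without the drug, and ZNF345 from 2.07 and 3.68 to 7.97 and 7.27. Host genes of small nucleolar RNAs also rose, 12 of 21, with 4 falls (17 and 2 under total-count scaling) and a median of 0.29. SNHG1 went from 62.7 and 64.6 CPM without the drug to 116 and 117 at 6 h and 289.5 and 273 at 48 h, although its exons overlap those of 7 other annotated genes on its strand. SNHG9 went from 0.641 and 0.683 to 4.47 and 4.13 CPM. SNHG29 was not called, with a change of −0.03 under TMM scaling and 0.26 under total-count scaling.

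Transcripts were counted at 48 h from genes that were silent or nearly so in ZMYND8 cells at 6 h. The number of genes with at least 1 count was 22637 and 22477 at 6 h and 30566 and 30350 at 48 h, at nearly equal total counts, against 23435 and 23609 without doxorubicin. Among the 2132 large rises 1064 had at most 3 counts in both libraries at 6 h, and for 655 of these the bound against 3 counts was itself past 1.5. Such genes could pass the filter on low counts only through other groups, the libraries at 48 h among them. A rise was therefore favoured by the filter, and nothing is read from the 1064 and the 655. RHBDL3, a rhomboid-like protein, had 0 counts at 6 h and 1.67 and 1.87 CPM at 48 h, at least 11.6-fold higher, and the VEGF receptor gene FLT1 went from 0 and 0.105 to 1.55 and 2 CPM. The keratin KRT9 went from 0.789 and 0.263 to 13.1 and 12.8 CPM and the long noncoding RNAs WAKMAR2 and LINC02701 from 0.345 and 0.578 to 7.93 and 9.83 and from 0.69 and 0.263 to 8.66 and 7.53. VSTM1 went from 0.148 and 0.263 to 3.5 and 2.98 CPM. SALL2, a zinc finger transcription factor, went from 0 and 0.105 to 1.46 and 0.978 CPM. NYNRIN went from 0 counts to 0.285 and 0.34 CPM, at least 2.05-fold higher, although GFP cells expressed it already at 6 h. The rule that named the largest rises used the average level over all 12 libraries. A gene near 0 here at 6 h could therefore be expressed in untreated or GFP cells, and low counts at 6 h do not show that doxorubicin switched it on. GSDMD, the pore-forming gasdermin D, was named by the same rule but had 0.569 and 9.32 CPM in the 2 libraries at 48 h, and without replicate 2 its change was 1.00 with adjusted p = 0.51.

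Markers of other cell types were among these genes. Of 19 such markers 12 were tested, and 9 rose and 0 fell. Those at or near 0 at 6 h could pass the filter only through other groups, the libraries at 48 h among them, so nothing is read from this count. The summed level of the list was 21.1 and 20.3 CPM without doxorubicin, 19.1 and 21.9 at 6 h and 33.3 and 33.2 at 48 h. PTPRC, the leukocyte antigen CD45, went from 0.0493 and 0.158 to 2.03 and 2.04 CPM, and the adipocyte gene ADIPOQ from 0 counts to 0.244 and 0.553. GATA3, a luminal transcription factor, had most of the counts of the list, with 14 and 15.3 and 20.4 and 19.4 CPM. The T cell gene CD3E had 0 counts at 6 h and was at 0.122 and 0.128 CPM at 48 h, and the monocyte gene CD14 was at 2.12 and 2.57 and 3.01 and 3.11 CPM and was not called. As a measure of counts on the strand opposite to a gene, over 307 pairs of overlapping genes on opposite strands the median ratio of antisense to sense density was 0.0684 and 0.0829 at 6 h and 0.0837 and 0.0839 at 48 h. The share of the counts in the 100 genes with most counts went from 16.3% and 16.6% to 14.8% and 14.4%. The part of these shifts in the rises was not tested.

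Genes that span more of the genome fell more often. Among genes with an average of at least 1 log2 CPM, 356 of 620 (57.4%) that spanned 250 kb or more fell, at a median of −0.41, and 1116 of 1823 (61.2%) that spanned 100 to 250 kb, at a median of −0.31. Of 1604 genes under 5 kb 538 (33.5%) fell, at a median of −0.06. The long genes had already moved at 6 h, by a median of −0.26 against no doxorubicin for 250 kb or more, so that at 48 h their median against untreated cells was −0.69. The order of the 2 longest ranges below the shorter ones was the same under all 11 alternatives run, while under total-count scaling the medians of the 4 shorter ranges were positive.

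**Figure D4:**
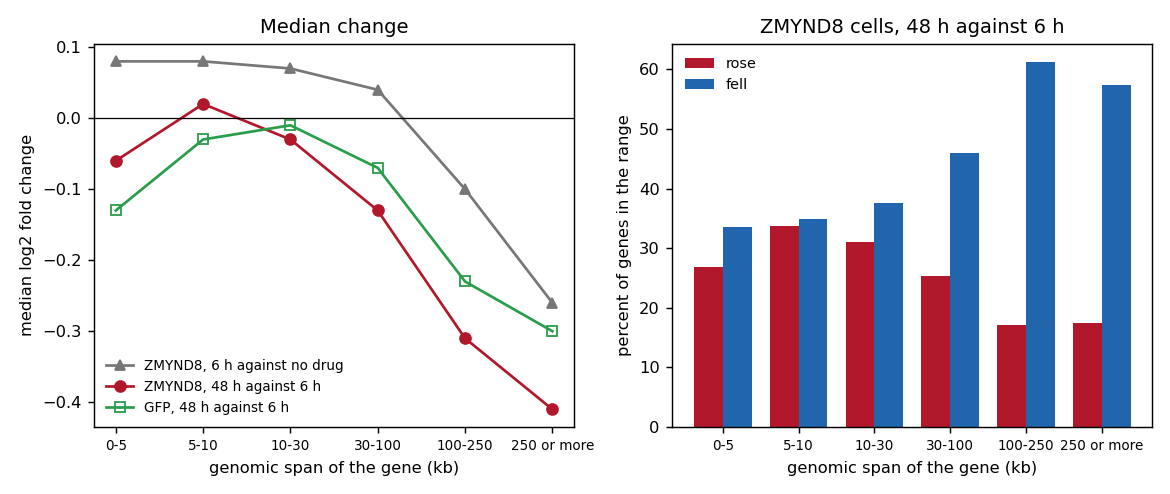
Genes with an average of at least 1 log2 CPM by genomic span (kb). The left panel gives the median log2 fold change of ZMYND8 cells at 6 h against no doxorubicin (grey triangles) and at 48 h against 6 h (red circles), and of GFP cells at 48 h against 6 h (green squares). The right panel gives the percent of genes that rose (red) or fell (blue) in ZMYND8 cells at 48 h against 6 h, with falls at 57.4% and 61.2% in the 2 longest ranges.

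The naming rule took further falls besides those given above. EDIL3, a matrix protein that binds integrins, went from 278 and 276 to 40.7 and 41.4 CPM, a change of −2.76 (SE 0.0441, adjusted p = 2.3e-25). SEMA7A, a membrane-anchored semaphorin, was at 66.6 and 67.7 CPM without the drug, 134 and 141 at 6 h and 20.2 and 20 at 48 h. NGFR, the low-affinity neurotrophin receptor, went from 7.1 and 6.25 to 1.02 and 0.723 CPM and the glutathione hydrolase GGT5 from 16 and 13.7 to 2.52 and 2.64. The rule also named BCYRN1, a noncoding RNA made from a repeat-derived sequence, whose libraries at 6 h differed (14.1 and 2.78 CPM) and lay above 0.691 and 0.638 at 48 h, and DRAXIN, which was at or under 3 counts in all 4 libraries.

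GFP cells given the same drug for the same times moved as broadly. There 6019 genes (32.0%) rose and 5682 (30.2%) fell, and of the changes of at least 1.5 on the log2 scale 2131 (11.3%) were rises and 236 (1.26%) falls. The number of genes with a count also went up in GFP cells, from 22507 and 22587 to 30201 and 30440. A test of the difference between the 2 changes, the ZMYND8 change minus the GFP change, called 5024 genes (26.7%), 1958 (10.4%) of them higher and 3066 (16.3%) lower in ZMYND8 cells. The lines already differed at 6 h, where 55.5% of genes were called between them, so the 2 changes started from unlike levels.

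Interferon-stimulated genes rose in both lines and by less in ZMYND8 cells. Their median was 0.91 in ZMYND8 and 1.31 in GFP cells, where 38 rose and 5 fell, and of the 31 genes with a called difference 26 were lower and 5 higher in ZMYND8 cells. IFI44L started at 0.262 and 0.321 CPM in GFP cells at 6 h and reached 9.77 and 9.34 at 48 h, close to the 11.2 and 10.8 of ZMYND8 cells, and its difference was −2.85 (SE 0.366, adjusted p = 1.2e-06). IFIT3 went from 164 and 165 to 408 and 413 CPM in GFP cells, below ZMYND8 cells throughout, with a difference of −0.73. Cytokine genes went the other way, with medians of 0.79 and 0.27 and 13 higher against 2 lower differences. CXCL11 reached 5.55 and 5.01 CPM in GFP cells from 1.31 and 1.28, a difference of 1.38, and IL6 went from 42.3 and 41.3 to 62.5 and 62.8, a difference of 0.74 (SE 0.0829, adjusted p = 1.5e-07). IL11 was an exception, rising from 5.41 and 6.58 to 54.1 and 55.7 CPM in GFP and from 103 and 93.9 to 213 and 206 in ZMYND8 cells, a difference of −2.10.

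Replication and mitotic genes rose further in GFP cells. Replication genes had medians of 0.24 and 0.65 and 47 differences lower in ZMYND8 cells against 0 higher, and mitotic genes 0.08 and 0.47 with 43 lower and 0 higher. TOP2A went from 482 and 466 to 841 and 854 CPM in GFP cells, a difference of −0.51 (SE 0.051, adjusted p = 2.5e-08), and the Fanconi gene FANCI from 69 and 70.9 to 144 and 149 against 124 and 125 to 155 in both in ZMYND8 cells. ZMYND8 cells were above GFP cells in TOP2A at 6 h and below them at 48 h.

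Chaperones and lipid genes fell further in ZMYND8 cells. Chaperone genes had medians of −0.75 and −0.17 with 18 differences lower and 0 higher, and lipid genes −0.71 and −0.54 with 14 lower and 2 higher. HSPD1 went from 602 and 619.5 to 439 and 435 CPM in GFP cells, a difference of −0.82. SCD went from 1597 and 1574 to 698 and 684 CPM there, a difference of −1.5 (SE 0.0607, adjusted p = 1.1e-15), and DHCR7 had a difference of −0.87. PHGDH was at 14.9 and 12 and 14.2 and 13.4 CPM in GFP cells, where its libraries overlapped, and its difference was −2.51 (SE 0.245, adjusted p = 1.6e-08). Ribosomal protein genes and small nucleolar RNA host genes went the other way: 62 of 75 and 13 of 21 had a higher difference and 0 a lower one, with medians of −0.21 against −0.54 and 0.29 against −0.38. SNHG1 went from 77.8 and 71.8 to 85.6 and 84.7 CPM in GFP cells, a difference of 1.08. SNHG9 had a difference of 2.91. MMP1 and CLDN1 were not called in GFP cells, at 58.1 and 60.1 and 60.2 and 57.2 CPM and at 27.7 and 27 and 30.1 and 28.5, with differences of 1.55 and 1.42.

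Several of the largest differences belonged to genes that 1 line hardly expressed at 6 h. BRDT, a testis bromodomain gene, was at 23.7 and 22.6 and 21.1 and 22.4 CPM in ZMYND8 cells and went from 0 counts to 0.977 and 0.631 in GFP cells. AMPH was at 11.4 and 10.6 and 6.95 and 7.49 CPM and at 0.21 and 0.107 and 1.64 and 1.3 in GFP cells. MMP8, at 8.08 and 9.21 and 2.44 and 1.89 CPM in GFP cells, had 1 and 0 counts in ZMYND8 cells at 6 h and 0.325 and 0.51 CPM at 48 h, and the phosphatase gene PTPRK fell from 5.93 and 10.2 to 0.266 and 0.336 in GFP and went from 1.04 and 1.21 to 3.37 and 2.42 in ZMYND8 cells. The change of PTPRK within ZMYND8 cells was not called without replicate 1 at 6 h (1.25, adjusted p = 0.06) or at 48 h (1.10, adjusted p = 0.059). CPA4 and DHRS3, both measured in each line, rose from 6.04 and 4.12 to 27.8 in both and from 1.26 and 1.45 to 17.3 and 16.6 CPM in GFP cells, while ZMYND8 cells were at 41 and 45.6 and 32.5 and 32.1 and at 1.53 and 1.42 and 2.56 and 1.36. NTM and NYNRIN had 0 counts in ZMYND8 cells at 6 h, and in GFP cells went from 7.87 and 6.9 to 2.44 and 2.4 CPM and from 3.94 and 4.34 to 13.7 and 15.4. The ephrin gene EFNB3 was at 0.296 and 0.0525 and 0.163 and 0.596 CPM in ZMYND8 cells and fell from 7.87 and 8.51 to 1.07 and 1.18 in GFP cells. CD99 was named by the same rule, but its replicates lay far apart, with 89.5 and 14.3 and 28.4 and 1.96 CPM in ZMYND8 cells, and without replicate 1 at 6 h its change turned from −1.77 to 0.08.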

How the data were processed

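Poly(A) RNA of 12 libraries of the inducible system was analysed, with 2 libraries per condition, which the labels call biological replicates and for which nothing more is stated about separate cultures. The p-values therefore measure the spread between such libraries. The authors deposited raw counts of read pairs per gene, made with featureCounts 1.6.4 on GENCODE 31 with strand setting 2 (per the file headers). Pairs that aligned to several places or to overlapping genes were not counted under these settings, so overlapping or near-identical genes lose counts. The build was hg38. The study's methods name TopHat and cuffdiff, while the submitters' processing notes name Trim Galore, HISAT2, featureCounts and DESeq2. The exon length in the same table, another column deposited by the authors, entered no test. A second table, of a transient system, was not used here.

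All 12 libraries were fitted together with edgeR 4.0.16 in R 4.3.3 (glmQLFit and glmQLFTest, TMM factors, filterByExpr by group), and 18801 of 60603 genes were kept. Contrasts were 48 h against 6 h in ZMYND8 cells, the same in GFP cells, and their difference. With 2 libraries against 2, an exact permutation test of a single gene could not go below p = 0.333, so the shared spread of the fit carries the calls. Total counts were 18300628 to 23724398 per library. Replicates of a group differed by more than sampling noise (chi-square per degree of freedom 2.19 to 5.21), so none was counted as a duplicate. Where a gene had 0 counts in both libraries of a group, a fold was given as a bound against 3 counts per library.

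The fit was tested on simulated counts. Promoters came from RefSeq (GRCh38.p14), matched by symbol, and motifs were searched on both strands.

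The comparison, gene lists and motifs were chosen with earlier results of these data known. Named genes were the study's own genes, the cell markers, the 10 largest rises and falls of at least 1.5 with an average of at least 1 log2 CPM and libraries that did not overlap, the 5 largest differences in each direction between the lines, and in each list the most abundant member and up to 4 called members with the largest change. ISG15, GBP2, ICAM1, IL11, LIF, CDKN1A, GDF15 and PSAT1 were added after their values were seen. Alternatives were RLE and total-count scaling, no filter and a minimum of 10 counts in every library, a replicate block, the libraries of the contrast alone, each library left out, DESeq2 1.42.0, an unadjusted p, and a log2 limit of 1. Some genes that these rules name are not reported here.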

Additional observations from a re-analysis of the deposited data

Results flagged for a closer look

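The change from 6 to 48 h differed between ZMYND8 and GFP cells in 5024 genes by edgeR's test of the difference, and each value here is the ZMYND8 log2 change minus the GFP one for a gene named above. Among immune genes the difference was −2.85 for IFI44L, −0.73 for IFIT3, 1.38 for CXCL11, 0.74 for IL6 and −2.10 for IL11. In metabolism and protein folding it was −1.5 for SCD, −0.87 for DHCR7, −2.51 for PHGDH and −0.82 for HSPD1. It was −0.51 for TOP2A, 1.08 for SNHG1, 2.91 for SNHG9, 1.55 for MMP1 and 1.42 for CLDN1. CPA4 and DHRS3 had differences of −2.87 and −3.22. Genes that 1 of the lines hardly expressed at 6 h had values far from 0, with −7.17 for BRDT, −3.77 for AMPH, 5.74 for MMP8, 5.51 for NTM, 3.92 for NYNRIN and 3.91 for EFNB3. PTPRK, with 6.08, was counted in both lines at 6 h and was low in GFP cells at 48 h. These fitted values depend on how counts near 0 are treated. CD99 had −3.51 and replicates that lay far apart. In groups of 2 libraries no single library was screened as an outlier.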

How the results depend on the processing

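The number of genes changed between 6 and 48 h in ZMYND8 cells stayed within 1.5 times of 11560 under every alternative run, from 9210 with at least 10 counts in every library to 12247 under total-count scaling, and DESeq2 called 9911. The number changed by at least 1.5 on the log2 scale did not: it was 468 (370 rises) with at least 10 counts in every library, a filter that removes genes silent at 6 h, and 3708 (2961 rises) with a limit of 1. Leaving out each library in turn gave 10380 to 10585 genes, 2177 to 2349 large changes and 4106 to 4538 differences between the lines, of which the full data gave 5024 and DESeq2 3788. With the replicate number as a replicate block the counts were 11464, 2330 and 4897, and the block changed no call of a named gene. The numbers did not pair the libraries, with correlations of same-numbered deviations from −0.142 to 0.0505 (0.0176 between 6 and 48 h in ZMYND8 cells).

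Of 169 named genes in 1818 alternative fits of the change, 1753 kept their direction and side of the threshold, 37 lost the call, 17 gained one and 11 turned. A called gene was counted as turned when its sign changed, also where the new value was not called. Of 24 differences in 350 fits, 333 kept theirs and 17 lost the call. Total-count scaling turned BMI1 (0.17), CDC25A (0.25), PMAIP1 (0.23) and SNHG29 (0.26), which were called there as rises. ERBB2 (0.06), KDM5C (0.04), KRT8 (0.07), NOTCH1 (0.00) and RPL13A (0.03) changed sign under it but were not called, so they lost their call as falls. Total-count scaling also turned the medians of ribosomal protein (0.08) and proteasome genes (0.14), and those of genes under 5 kb (0.22), of 10 to 30 kb (0.26) and of 30 to 100 kb (0.16). The median of all genes was 0.32 there. It gave a call to 6 more genes (ABCC2, CD14, DHRS3, ESR1, EZH2 and MCM7) and took it from 7 (AMPH, CD99, CPA4, EPCAM, PSMD2, SOX9 and SQSTM1). With each library left out in turn CD99 ranged from −4.74 to 0.08 (without replicate 1 at 6 h) and COL1A2 from −0.33 (without replicate 2 at 48 h) to 3.55. With at least 10 counts in every library the medians of epithelial genes (−0.02), of genes under 5 kb (0.03) and of 10 to 30 kb (0.08) turned. The median of 10 to 30 kb was 0.00 with RLE factors and with DESeq2 and 0.01 with the libraries of the contrast alone. Without a filter the medians of genes of 5 to 10 kb (−0.03) and of all genes (−0.01) turned. The causes were not tested. The difference of NYNRIN was lost without any 1 of the 8 libraries (adjusted p up to 0.21), that of NTM without replicate 1 of ZMYND8 cells at 6 h (adjusted p = 0.053), and that of CD99 in 5 of 8 such fits. DRAXIN lost its call without replicate 1 at 6 h (adjusted p = 0.098) or either library at 48 h (adjusted p = 0.096 and 0.089), and DHRS3, at 0.42 and not called, rose by 0.78 without replicate 2 at 48 h (adjusted p = 0.012). With 2 libraries per time and about 3 counts as the floor, genes near 0 at 6 h carry wide errors.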

Other observations

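Promoter letters were also counted, on both strands, for mitotic genes, whose sequences are not shown. TTTGAA, the core of the cell cycle homology region, was in 33 of 47 promoters (70.2%), against 15.4% of all 27305 promoters. Of the 18 mitotic genes with a promoter that rose, 10 held a match, against 23 of the 29 others. These others include SKA1, which held a match and had too few counts to test. Of 22 promoters of immediate early genes 1 held TGANTCA, the AP-1 letters (4.55%), against 7.76% of all. A match is a run of letters in a 300-base window, and no binding was measured.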
